A study of Mus musculus with 4 samples.

Results

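The synaptic vesicle release machinery was described as 72 genes of 33981 in the joined tables, chosen by gene symbol alone: every *Syt*, *Vamp*, *Stx*, *Stxbp*, *Cplx*, *Sv2*, *Syn*, *Rab3*, *Rims* and *Unc13* gene of the numbered families, with *Snap25*, *Snap47*, *Syp*, *Bsn* and *Pclo*. The rule used no expression value, although it was set with earlier results of these data known. The genes fall into 17 synaptotagmins (labelled calcium sensors), 6 synaptic SNARE proteins and 19 SNARE proteins of other membranes. The rest are 13 SNARE regulators and priming factors, 6 active zone scaffolds and 11 vesicle proteins. These roles are labels: not every synaptotagmin binds calcium, and *Snap47*, a relative of SNAP-25 in intracellular membranes, is counted with the synaptic SNAREs. Their RNA was measured in 24 libraries of bulk RNA sequencing, 6 in each of 4 groups. All mice were male C57BL/6J aged 3 to 5 months. NT (normotensive) mice were infused with saline for 28 days. HT (hypertensive) mice received angiotensin II over the same 28 days, at a dose of 0.28 mg/kg/day. On day 7 each mouse had sham surgery or a photothrombotic stroke, in which light aimed at the prefrontal cortex clots the vessels of the illuminated area. The groups are thus named by infusion and surgery, as in HT + Stroke, and tissue was taken on day 28. The tissue was a slice of forebrain cut in the coronal plane through the prefrontal region, and its RNA thus comes from the infarct, its surroundings and whatever neighbouring regions were cut with them. The labels name 1 sample per group, whereas the tables number 6 libraries per group, and each library was treated as 1 mouse, so P-values measure the spread between these libraries.

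Release of transmitter begins with vesicles that carry SNARE proteins of the synaptobrevin (VAMP) family, which zipper with syntaxin and SNAP-25 on the plasma membrane. Munc13 (*Unc13* genes), complexins and other regulators hold this complex in a primed state at the active zone, a scaffold of RIM, Bassoon and Piccolo, until a synaptotagmin on the vesicle binds calcium and triggers fusion. Synapsins, Rab3 and SV2 proteins tether, recruit and prepare the vesicles, and related syntaxins and VAMPs serve fusion in other membranes of every cell.

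Library totals ran from 15922919 to 24865998 counts, with a median of 18497216. Levels are given as CPM (counts relative to the TMM-scaled library size) for comparing libraries and as FPKM (which also divides by gene length) for comparing genes. Against the label of brain tissue, all 10 pan-neuronal markers (*Rbfox3*, *Map2* and others) were detected in every library, the lowest at 39.7 CPM. Marker scores, the mean log2(CPM + 1) over a list, set 3 libraries apart from their groups. The phagocyte score (*Cd68*, *Lgals3*, *Cd5l*, *Mmp12*, *Gpnmb*) was 1.33 to 1.64 in NT + Sham and 3.502 to 6.31 in NT + Stroke. HT + Sham library 6 scored 4.23, inside the range of NT + Stroke. HT + Stroke libraries 1 and 6 scored 2.23 and 2.32, below every NT + Stroke library but above every NT + Sham library. The astrocyte scores of the same libraries were 7.999, 7.498 and 7.45, against 7.29 to 7.52 in NT + Sham and 7.98 to 8.18 in NT + Stroke. The comparisons that rest on HT libraries are therefore also given without these 3, an alternative that was added after the scores were seen. Leaving out libraries by these scores can by itself widen the stroke difference of genes that move with the same markers. The P-values of that fit are thus no separate support. The sections also differed in neighbouring tissue: the striatal score was 4.47 to 6.77 in NT + Sham, 4.71 to 7.34 in NT + Stroke, 3.81 to 6.37 in HT + Sham and 5.83 to 7.56 in HT + Stroke. The olfactory bulb score was 3.02 to 4.33, 3.79 to 5.88, 3.93 to 6.03 and 2.24 to 5.30 in the same order. In bulk tissue, fewer cells of a type and less RNA per cell cannot be told apart.

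**Figure D1:**
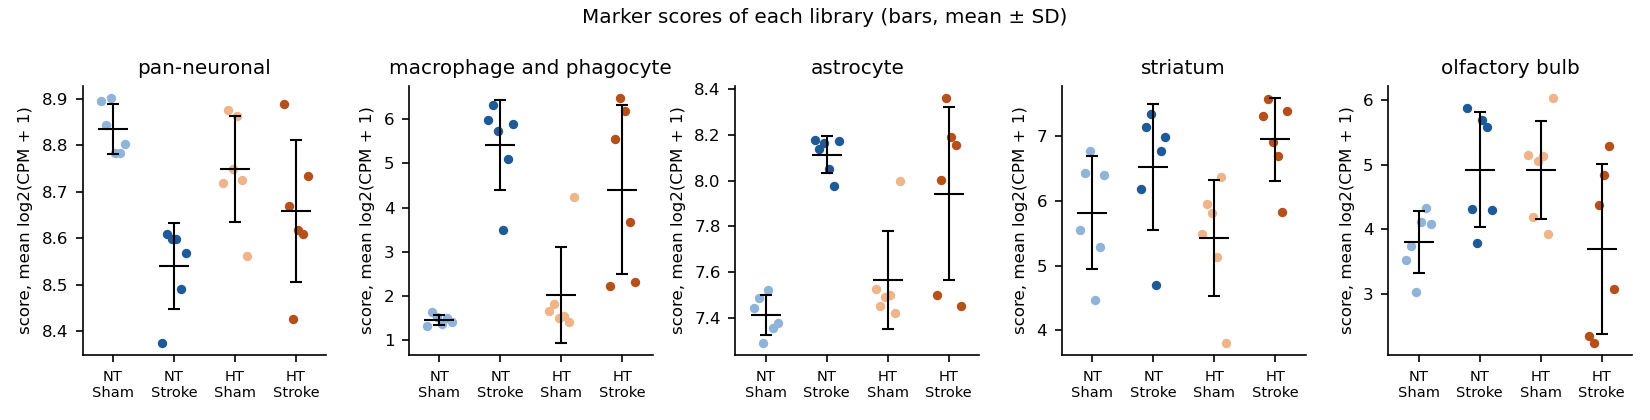
Marker score (mean log2(CPM + 1) over the list, vertical axis) of each of the 24 libraries, by group (horizontal axis), for 5 marker lists. Points are libraries and bars the mean ± SD of 6. In the phagocyte panel HT + Sham library 6 lies at 4.23 and HT + Stroke libraries 1 and 6 at 2.23 and 2.32, away from the rest of their groups.

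Per length of transcript, the most abundant of the 72 genes were *Vamp2* at 541 FPKM, *Cplx1* at 456, *Rab3a* at 433, *Snap25* at 320.2, *Syp* at 318, *Cplx2* at 274 and *Syn1* at 241 (means over 24 libraries). The 10 most abundant made up 69.5% of the FPKM summed over the 72 genes, 15 had a mean above 100 FPKM and 10 a mean under 1 FPKM. Among the synaptotagmins *Syt5* (138 FPKM), *Syt11* (127) and *Syt1* (124) led, while *Syt2*, the fast calcium sensor used by parvalbumin interneurons and hindbrain synapses, stood at 5.62 FPKM. The scaffolds lay between 5.61 FPKM for *Pclo* and 24.5 for *Rims4*, a RIM relative that lacks most of the domains of RIM1. The highest SNARE of other membranes was the endosomal syntaxin *Stx12* at 34.2 FPKM. In NT + Sham the coefficient of variation of CPM over 6 libraries had a median of 8.59% over the genes tested for stroke, and in HT + Stroke it was 11.7%. *Stx11*, *Stx19*, *Vamp9*, *Cplx4* and *Syt8* were removed by the filter on low counts for stroke against sham in NT and in HT mice. *Stx11* entered HT + Stroke vs NT + Stroke and the fits over all 4 groups. Exons of *Syt12* (46.1% of exon bases), *Stx18*, *Syp*, *Syt4*, *Syn3* and *Snap47* overlap genes on the opposite strand by over 10%. For *Syn3* that gene is *Timp3*, with 5204 counts over all libraries against 1954, and whether the counting used strand is not given in the sources used here, so the levels of these genes are uncertain.

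**Figure D2:**
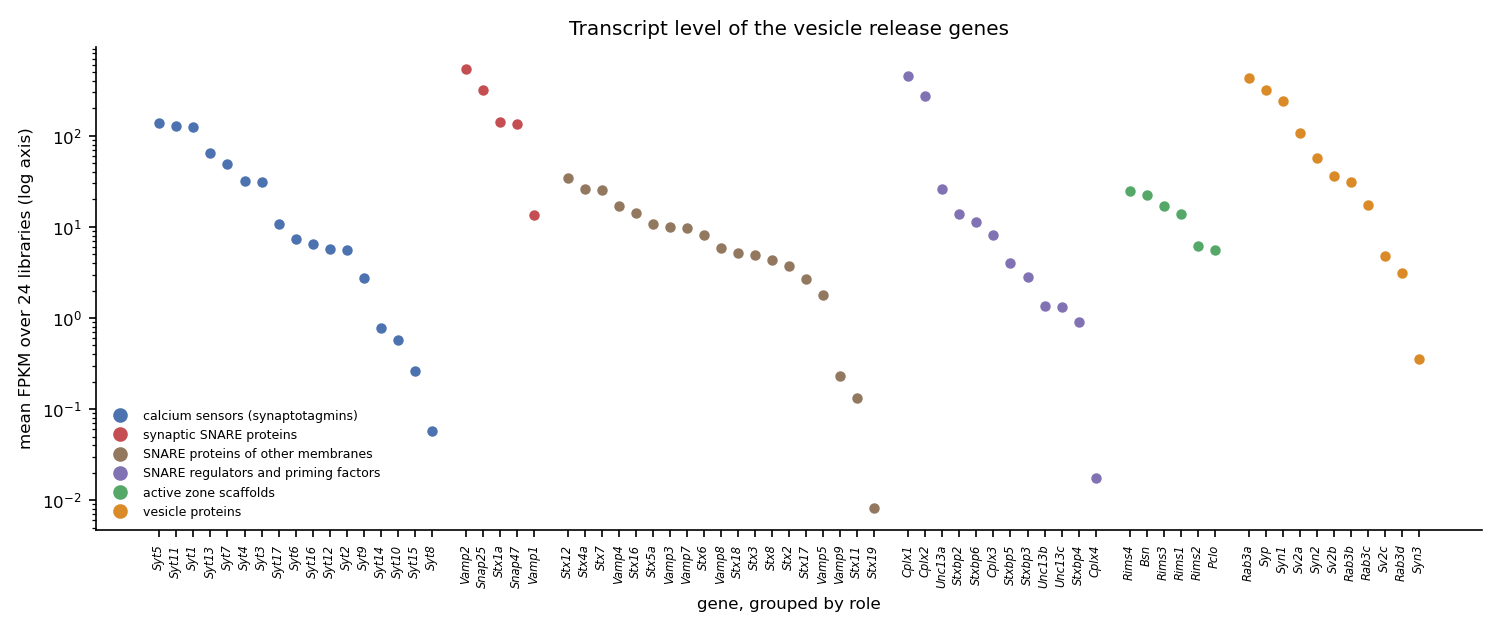
Mean FPKM over 24 libraries (vertical log axis) of the vesicle release genes described here, grouped by role and ordered by level within a role (horizontal axis). Levels run from 541 FPKM for *Vamp2* to 0.00821 FPKM for *Stx19*.

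Promoter windows of RefSeq on GRCm38.p6, 300 bases from 250 before to 50 after the start of a transcript, were at hand for 56 of the 72 genes (72 windows) and for 27025 symbols in all. Their mean GC content had a median of 63.0% over the 56 genes and 52.8% over all symbols. The letters of the GC box (GGGCGG), of the cAMP response element (TGACGTCA), of the left part of the RE1 element (TTCAGCACC), which binds the neuronal gene repressor REST, and of the NRF1 core (GCATGCGC) were searched on both strands, a choice made with the windows in view. The GC box letters were in the windows of 45 of 56 (80.4%), against 38.2% of all symbols. Those of the cAMP response element were in 2 of 56 (3.57%), against 2.03% of all symbols, those of the RE1 part in 2 of 56 (3.57%), against 0.433% of all symbols, and those of the NRF1 core in 6 of 56 (10.7%), against 3.05% of all symbols. A match of letters is no evidence of binding. 4 windows are shown, for a synapsin that holds 3 of the 4 motifs, for the other gene with the RE1 letters, for the scaffold Bassoon, whose NRF1 cores lie in palindromes in which 1 match overlaps its reverse complement, and for *Vamp8*, the gene with the largest rise among those tested for stroke in NT mice, whose window holds none of the 4. They are *Syn1* (chrX:20920869-20921168, minus strand), *Unc13a* (chr8:71671708-71672007, minus strand), *Bsn* (chr9:108190334-108190633, minus strand) and *Vamp8* (chr6:72390618-72390917, minus strand), written 5′ to 3′ along the gene, with the matches on either strand in capitals.
Syn1: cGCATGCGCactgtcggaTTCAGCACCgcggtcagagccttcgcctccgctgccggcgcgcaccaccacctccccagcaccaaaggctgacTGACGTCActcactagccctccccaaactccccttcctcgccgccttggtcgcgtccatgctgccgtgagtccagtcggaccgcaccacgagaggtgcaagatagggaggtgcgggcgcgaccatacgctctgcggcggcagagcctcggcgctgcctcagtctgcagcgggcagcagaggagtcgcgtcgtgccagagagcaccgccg
Unc13a: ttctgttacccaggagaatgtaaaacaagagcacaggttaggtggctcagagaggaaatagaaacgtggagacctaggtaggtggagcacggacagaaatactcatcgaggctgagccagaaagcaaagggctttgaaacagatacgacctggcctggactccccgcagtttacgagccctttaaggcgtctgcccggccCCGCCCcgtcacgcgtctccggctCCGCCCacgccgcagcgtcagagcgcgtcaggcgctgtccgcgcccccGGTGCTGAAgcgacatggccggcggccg
Bsn: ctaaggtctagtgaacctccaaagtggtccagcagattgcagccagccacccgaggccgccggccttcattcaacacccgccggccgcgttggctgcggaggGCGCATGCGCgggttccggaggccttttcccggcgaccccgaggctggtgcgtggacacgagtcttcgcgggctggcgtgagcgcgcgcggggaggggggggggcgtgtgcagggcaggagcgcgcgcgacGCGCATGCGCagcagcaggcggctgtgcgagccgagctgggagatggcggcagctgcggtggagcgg
Vamp8: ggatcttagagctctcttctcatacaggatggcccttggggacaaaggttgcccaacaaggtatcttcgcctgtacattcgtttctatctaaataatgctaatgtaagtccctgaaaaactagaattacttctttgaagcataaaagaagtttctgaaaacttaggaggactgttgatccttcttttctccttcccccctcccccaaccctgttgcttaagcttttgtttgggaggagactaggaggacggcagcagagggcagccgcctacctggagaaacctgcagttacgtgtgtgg

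The first comparison asked what stroke alone did to the release machinery, 21 days after surgery, in mice with normal blood pressure. Summed over the 72 genes, the level was 20616 to 21409 (median 21008) CPM in NT + Sham and 16607 to 18479 (median 17296) CPM in NT + Stroke, and the groups did not overlap. Of 67 genes tested, 30 (44.8%) fell, against 11.5% of all genes tested, and 5 (7.46%) rose, against 14.4% (edgeR's quasi-likelihood test, Benjamini-Hochberg adjusted P under 0.05 over 16835 genes). The median log2 fold change was −0.16 over the genes of the machinery and −0.011 over all genes, and 52 of 67 were below 0. In 21 genes all 6 stroke libraries lay below all 6 sham libraries, as did 6.83% of all genes, and in 4 they lay above, as did 7.47%. Falls were counted in 4 of 6 scaffolds, 5 of 6 synaptic SNAREs, 7 of 11 vesicle proteins, 6 of 12 regulators tested and 7 of 16 synaptotagmins tested, but in 1 of 16 SNAREs of other membranes. Scaled by library size alone, without TMM, 22 genes fell and 7 rose, with 23.8% of all genes called. With the striatal and olfactory bulb scores as covariates, 3 genes fell (*Pclo*, *Snap25*, *Sv2b*) and 1 rose (*Vamp8*), 4.14% of all genes were called, and the median over the machinery was −0.12.

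**Figure D3:**
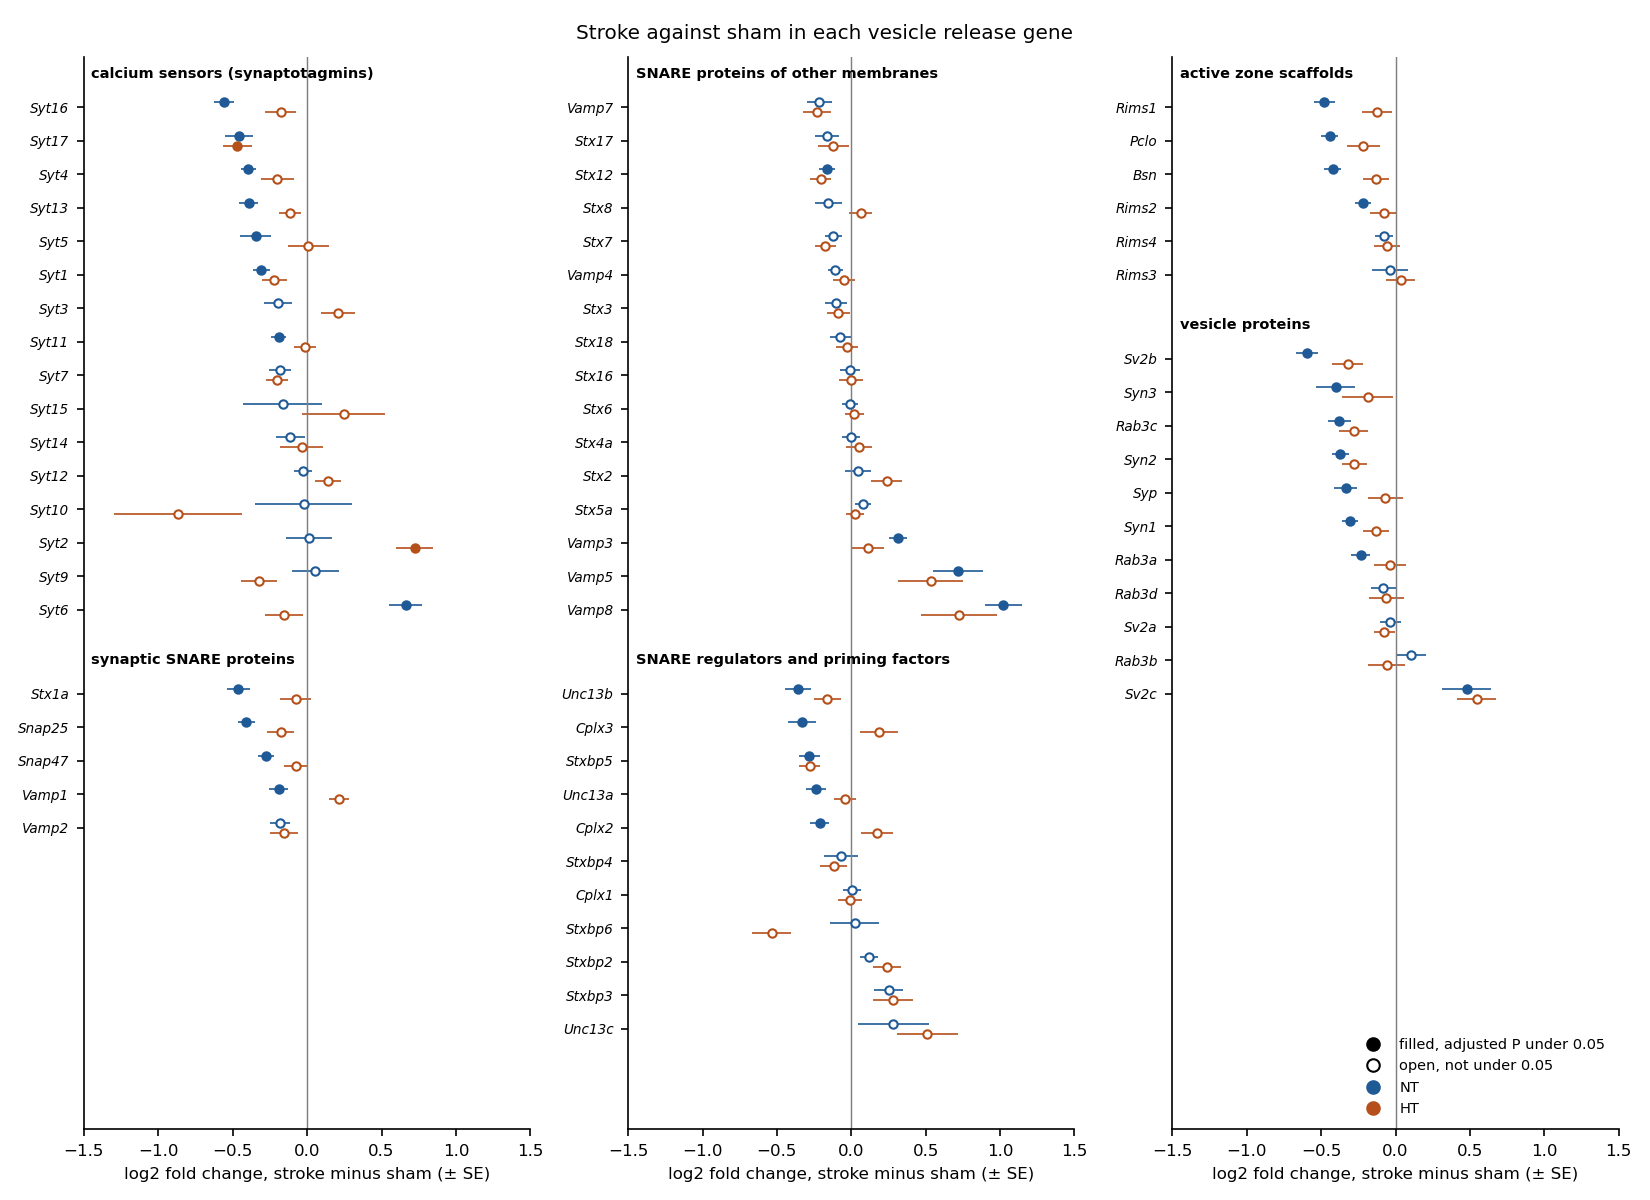
Log2 fold change of stroke against sham (horizontal axis, ± SE) in NT mice (blue) and HT mice (orange), 6 libraries per group, for the tested genes described here (vertical axis, by role and ordered by the NT value). Filled points passed an adjusted P of 0.05, and in HT mice these are *Syt17* at −0.47 and *Syt2* at 0.72.

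Among the synaptotagmins 7 fell and 1 rose, with a median log2 fold change of −0.19 over 16 tested. *Syt16*, an unusual family member that does not bind calcium, stood at 66.9 to 77.6 (median 73.4) CPM in NT + Sham and at 42.7 to 53.4 (median 49.9) CPM in NT + Stroke, with no overlap. Its log2 fold change of −0.56 ± 0.068 (SE), adjusted P = 1.00e-05, was the lowest of the family. *Syt1*, the main calcium sensor of fast release in the forebrain, was 1088 to 1263 (median 1139) CPM in sham and 866 to 985 (median 905) CPM in stroke (log2 fold change of −0.31 ± 0.058 (SE), adjusted P = 5.80e-04). Every stroke library was below every sham library. *Syt13*, which also lacks calcium binding, was 259 to 279 (median 273) CPM in sham and 182 to 234 (median 205) CPM in stroke (log2 fold change of −0.39 ± 0.066 (SE), adjusted P = 2.17e-04), again without overlap. *Syt17*, a synaptotagmin of the secretory pathway, was 58.7 to 74.3 (median 62.8) CPM in sham and 39.5 to 59.7 (median 43.7) CPM in stroke (log2 fold change of −0.46 ± 0.095 (SE), adjusted P = 0.00172), and the groups overlapped. For *Syt5*, the most abundant of the family per length, 285 to 433 (median 359) CPM in sham overlapped 203 to 307 (median 289.7) CPM in stroke (log2 fold change of −0.35 ± 0.10 (SE), adjusted P = 0.0188). *Syt4*, a calcium-insensitive sensor of dense-core vesicles, and *Syt11* fell by 0.39 and 0.19 on the log2 scale, both without overlap. *Syt7*, the slow sensor of asynchronous release, had a log2 fold change of −0.18 ± 0.071 (SE) that did not pass (adjusted P = 0.0694). *Syt2* stood at 34.2 to 49.9 (median 41.2) CPM in sham and 25.8 to 57.2 (median 41.9) CPM in stroke, and its log2 fold change was 0.011 ± 0.16 (SE) at an adjusted P of 0.971. The call of *Syt5* ended without NT + Sham library 1 (adjusted P = 0.0506). The call of *Syt7* was gained without NT + Sham library 3 (adjusted P = 0.0355). The other synaptotagmins tested did not pass, with log2 fold changes from −0.20 for *Syt3* to 0.055 for *Syt9*, and *Syt15*, *Syt14*, *Syt12* and *Syt10* between them.

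*Syt6* was the only synaptotagmin that rose in this comparison. Its level was 28.1 to 36.2 (median 33.7) CPM in NT + Sham and 42.8 to 63.1 (median 46.2) CPM in NT + Stroke, and the groups did not overlap (log2 fold change of 0.66 ± 0.11 (SE), adjusted P = 3.28e-04). The list of olfactory bulb markers held 4 genes, *Doc2g*, *Cdhr1*, *Tbx21* and *Eomes*. Their summed level ran from 47.6 to 111 CPM in NT + Sham and from 75.5 to 294 CPM in NT + Stroke, and the groups overlapped. With the striatal and olfactory bulb scores as covariates, the log2 fold change of *Syt6* was 0.22 ± 0.14 (SE), adjusted P = 0.520 by edgeR. The part of bulb tissue in the rise of *Syt6* was not tested.

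Of the 6 synaptic SNARE proteins 5 fell and none rose (median log2 fold change −0.23). *Snap25*, the plasma membrane SNARE of neurons, was 2358 to 2662 (median 2537) CPM in NT + Sham and 1777 to 2039 (median 1878) CPM in NT + Stroke (log2 fold change of −0.41 ± 0.056 (SE), adjusted P = 3.34e-05). *Stx1a*, syntaxin 1A, was 399.7 to 457 (median 434) CPM in sham and 258 to 364 (median 319) CPM in stroke (log2 fold change of −0.46 ± 0.077 (SE), adjusted P = 2.04e-04). In both genes all stroke libraries were below all sham libraries. *Snap47*, a SNAP-25 relative of intracellular membranes, was 374 to 402 (median 388) CPM in sham and 283 to 335 (median 321) CPM in stroke (log2 fold change of −0.28 ± 0.052 (SE), adjusted P = 6.48e-04). *Vamp2*, the principal vesicle SNARE, overlapped between the groups at 1786 to 2424 (median 2174) CPM and 1736 to 2065 (median 1809) CPM and did not pass (log2 fold change −0.18 ± 0.067 (SE), adjusted P = 0.0513). *Vamp1*, its paralog of fast-firing and spinal neurons, stood at 137 to 164 (median 146) CPM and 114 to 143 (median 124) CPM (log2 fold change of −0.19 ± 0.064 (SE), adjusted P = 0.0347). The call of *Vamp1* ended without any 1 of NT + Sham libraries 2, 3, 4 or 5 or of NT + Stroke libraries 1, 4, 5 or 6 (adjusted P up to 0.111). The call of *Vamp2* was gained without NT + Sham library 4 or without NT + Stroke library 4 (adjusted P up to 0.0360).

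Among the SNAREs of other membranes 3 rose and 1 fell of 16 tested, with a median log2 fold change of −0.041. A difference between roles was not tested. *Vamp8*, the endobrevin of late endosomes and of secretion in blood and immune cells, had the largest rise of the genes tested here. The gene lies at chr6:72385223-72390703 of GRCm38. It stood at 6.83 to 9.87 (median 8.66) CPM in NT + Sham and 12.4 to 21.6 (median 17.0) CPM in NT + Stroke (log2 fold change of 1.02 ± 0.12 (SE), adjusted P = 1.02e-05, 2.03-fold), and no library overlapped. *Vamp5*, a VAMP of muscle and endothelium, rose, at 2.31 to 4.60 (median 3.69) CPM in sham and 4.66 to 7.70 (median 5.71) CPM in stroke (log2 fold change of 0.72 ± 0.17 (SE), adjusted P = 0.00382), and *Vamp3*, cellubrevin of glia and other non-neuronal cells, rose by 0.31 on the log2 scale, both without overlap. Beside them, 5 of 5 phagocyte markers rose, with a median log2 fold change of 6.30 and a summed level of 15.3 to 21.3 CPM in sham and 119.9 to 619.5 CPM in stroke. Also 5 of 6 microglial, 4 of 5 astrocyte and 1 of 3 endothelial markers rose, and the part of these cells in these VAMP results was not tested. *Stx12* was the gene that fell, at 106 to 124 (median 115) CPM in sham and 94.9 to 108 (median 104) CPM in stroke with overlap (log2 fold change of −0.16 ± 0.054 (SE), adjusted P = 0.0342). *Vamp7*, a lysosomal VAMP that lies on the unplaced scaffold GL456233.1 of the files, had a log2 fold change of −0.21 ± 0.082 (SE), adjusted P = 0.0640, and *Stx7*, of late endosomes, −0.12 ± 0.057 (SE), adjusted P = 0.135. The call of *Stx12* ended without any 1 of NT + Sham libraries 1, 3, 4, 5 or 6 or of NT + Stroke libraries 1, 2, 4 or 6 (adjusted P up to 0.111). The call of *Vamp7* was gained without NT + Stroke library 5 (adjusted P = 0.0185). The other SNARE proteins of other membranes tested did not pass, with log2 fold changes from −0.16 for *Stx17* to 0.078 for *Stx5a*, and *Stx8*, *Vamp4*, *Stx3*, *Stx18*, *Stx16*, *Stx6*, *Stx4a* and *Stx2* between them.

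6 of 12 regulators and priming factors tested fell and none rose (median log2 fold change −0.14). *Unc13b*, Munc13-2, was 31.2 to 41.5 (median 35.6) CPM in sham and 23.7 to 30.8 (median 26.8) CPM in stroke (log2 fold change of −0.36 ± 0.086 (SE), adjusted P = 0.00451), without overlap. *Unc13a*, Munc13-1 and the main priming factor of glutamate synapses, overlapped at 306 to 395 (median 346) CPM and 268 to 308 (median 293) CPM (log2 fold change of −0.24 ± 0.068 (SE), adjusted P = 0.0140). *Stxbp5*, tomosyn, an inhibitor of SNARE assembly, was 65.5 to 82.7 (median 73.8) CPM in sham and 55.5 to 66.1 (median 60.1) CPM in stroke (log2 fold change of −0.28 ± 0.070 (SE), adjusted P = 0.00582). The complexins clamp and activate the assembled SNAREs. *Cplx1* stood at 927 to 1048 (median 975) CPM in sham and 877 to 1076 (median 973) CPM in stroke (log2 fold change 0.0025 ± 0.061 (SE)). *Cplx2*, which predominates in excitatory forebrain neurons, was 1335 to 1479 (median 1388) CPM in sham and 1056 to 1297 (median 1203) CPM in stroke (log2 fold change of −0.21 ± 0.063 (SE), adjusted P = 0.0171), and *Cplx3* was 20.3 to 30.02 (median 26.1) CPM in sham and 16.8 to 23.4 (median 20.04) CPM in stroke (log2 fold change of −0.33 ± 0.096 (SE), adjusted P = 0.0160). Of these *Cplx2* and not *Cplx3* was without overlap. The call of *Cplx2* ended without any 1 of NT + Sham library 2 or of NT + Stroke libraries 1 or 4 (adjusted P up to 0.0565). The call of *Cplx3* ended without NT + Stroke library 1 (adjusted P = 0.0536). The other SNARE regulators and priming factors tested did not pass, with log2 fold changes from −0.068 for *Stxbp4* to 0.28 for *Unc13c*, and *Stxbp6*, *Stxbp2* and *Stxbp3* between them. The call of *Stxbp3* was gained without any 1 of NT + Sham libraries 2 or 5 or of NT + Stroke library 4 (adjusted P up to 0.0432).

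The active zone scaffolds had the lowest median log2 fold change of the 6 roles, −0.32, and 4 of 6 fell. *Bsn* (Bassoon) was 380.2 to 438 (median 396) CPM in NT + Sham and 279.6 to 301 (median 295) CPM in NT + Stroke (log2 fold change of −0.42 ± 0.055 (SE), adjusted P = 1.90e-05). *Pclo* (Piccolo) was 142 to 166 (median 147) CPM in sham and 103 to 115 (median 109) CPM in stroke (log2 fold change of −0.44 ± 0.057 (SE), adjusted P = 1.90e-05). *Rims1*, which links Rab3, Munc13 and calcium channels, was 112 to 139 (median 117) CPM in sham and 80.3 to 99.6 (median 83.0) CPM in stroke (log2 fold change of −0.48 ± 0.070 (SE), adjusted P = 5.66e-05). *Rims2* was 68.5 to 72.3 (median 69.1) CPM in sham and 54.98 to 63.2 (median 59.3) CPM in stroke (log2 fold change of −0.22 ± 0.054 (SE), adjusted P = 0.00567). In these scaffolds every stroke library was below every sham library. *Rims4* stood at 113 to 130.5 (median 123) CPM and 105 to 131 (median 113) CPM and did not pass, with a log2 fold change of −0.079 ± 0.061 (SE). *Rims3* did not pass either, at −0.037 ± 0.12 (SE) on the log2 scale.

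Of the 11 vesicle proteins 7 fell and 1 rose (median log2 fold change −0.31). *Sv2b*, at chr7:75114894-75309262 of GRCm38, had the largest fall of the machinery. Its level was 342 to 442 (median 367) CPM in NT + Sham and 222 to 276 (median 246) CPM in NT + Stroke (log2 fold change of −0.60 ± 0.072 (SE), adjusted P = 9.94e-06), without overlap. Its paralog *Sv2a*, the SV2 of nearly all synapses and the binding site of levetiracetam, stood at 432 to 534 (median 499.7) CPM and 419 to 519.7 (median 487) CPM, with a log2 fold change of −0.034 ± 0.072 (SE). *Syn1*, synapsin I, which tethers the reserve pool, was 810.5 to 875 (median 861) CPM in sham and 636 to 764 (median 679.7) CPM in stroke (log2 fold change of −0.31 ± 0.054 (SE), adjusted P = 3.56e-04). *Syn2* was 419 to 478 (median 457) CPM in sham and 322 to 368 (median 346) CPM in stroke (log2 fold change of −0.37 ± 0.058 (SE), adjusted P = 1.16e-04) and *Rab3c*, a vesicle GTPase, at 201 to 283 (median 233) CPM in sham and 162 to 191 (median 179) CPM in stroke (log2 fold change of −0.38 ± 0.077 (SE), adjusted P = 0.00132). All stroke libraries were below all sham libraries in these genes. *Rab3a*, the most abundant Rab3, overlapped at 866 to 1115 (median 1035) CPM and 757 to 929 (median 858) CPM (log2 fold change of −0.23 ± 0.065 (SE), adjusted P = 0.0121). *Syp*, synaptophysin, the usual vesicle marker of histology, fell by 0.33 on the log2 scale, and *Syn3* by 0.40. *Sv2c*, the SV2 of the basal ganglia, was the gene that rose, at 28.7 to 47.2 (median 39.5) CPM in sham and 33.2 to 63.5 (median 56.9) CPM in stroke with overlap (log2 fold change of 0.48 ± 0.16 (SE), adjusted P = 0.0481), while the 7 striatal markers had a median log2 fold change of 0.73 and 0 of 7 passed (edgeR, with 0 at an unadjusted P under 0.05). The call of *Sv2c* ended without any 1 of NT + Sham libraries 1, 2, 4 or 5 or of NT + Stroke libraries 1, 2, 3, 5 or 6 (adjusted P up to 0.102). The call of *Syn3* ended without any 1 of NT + Sham libraries 1, 3 or 4 or of NT + Stroke libraries 2, 3 or 4 (adjusted P up to 0.0792). The other vesicle proteins tested did not pass, with log2 fold changes from −0.082 for *Rab3d* to 0.11 for *Rab3b*.

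**Figure D4:**
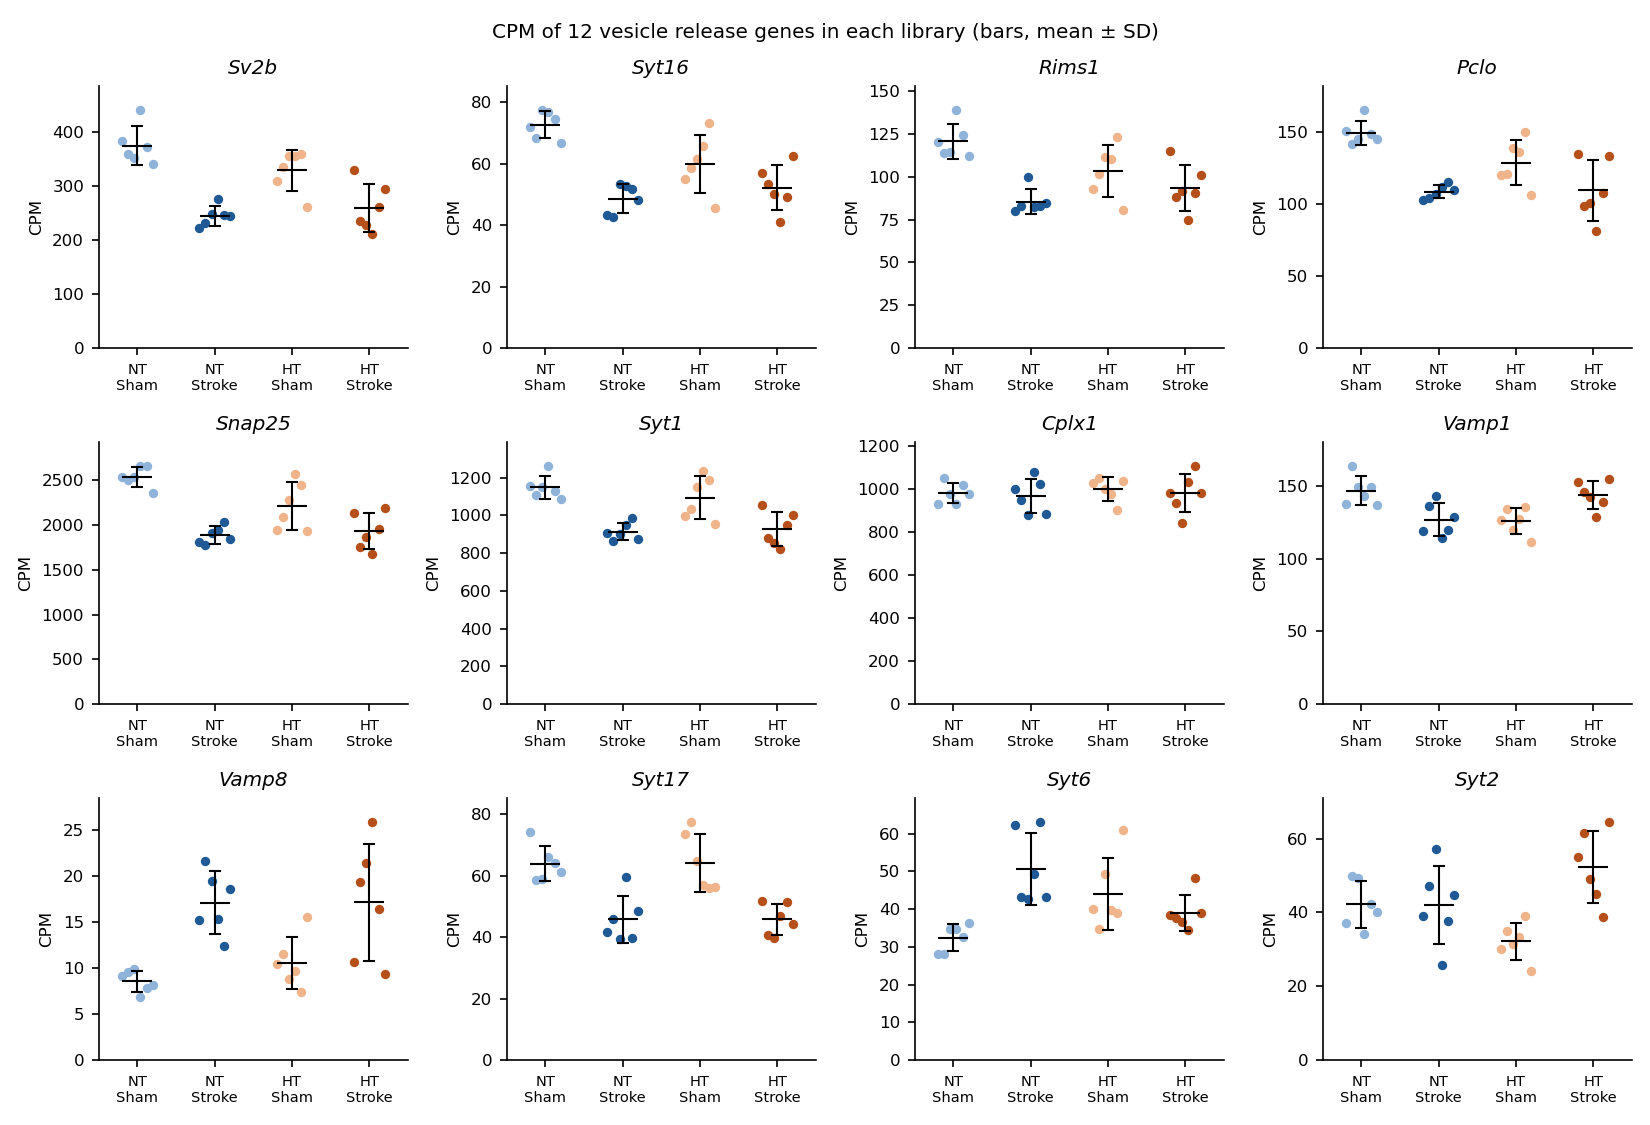
CPM (vertical axis, from 0) of 12 vesicle release genes in each of the 24 libraries, by group (horizontal axis). Points are libraries and bars the mean ± SD of 6. *Sv2b* lies at 222 to 276 CPM in NT + Stroke, below the 342 to 442 CPM of NT + Sham, while the *Cplx1* ranges of all 4 groups overlap.

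The second comparison asked the same of mice infused with angiotensin II. The level summed over the 72 genes was 18035 to 21410.0 (median 20155) CPM in HT + Sham and 16424 to 20839 (median 18510.3) CPM in HT + Stroke, and the groups overlapped. Of 67 genes tested 1 fell, against 0.102% of all genes tested, and 1 rose, against 0.544%. At an unadjusted P under 0.05 there were 20, against 17% of all genes. The median log2 fold change was −0.074 over the machinery and 0.0007 over all 16741 genes. All stroke libraries were below all sham libraries in 1 gene of the machinery, against 0.561% of all genes, and above in 0, against 0.591%. Without HT + Sham library 6 and HT + Stroke libraries 1 and 6, 8 genes fell (*Syn2*, *Stxbp5*, *Rab3c*, *Syt4*, *Syt16*, *Sv2b*, *Syt17*, *Pclo*), against 1.66% of all genes, 3 rose (*Syt2*, *Vamp8*, *Vamp5*), against 6.81%, and the median over the machinery was −0.15. Of the 30 genes that fell in NT mice, 26 had a log2 fold change below 0 in HT mice, with a median of −0.13 in HT and −0.34 in NT. Of all 1939 genes that fell in NT and were tested in HT, 85.7% were below 0 in HT, with a median of −0.11 in HT and −0.29 in NT. In 19 of the 30 genes HT + Stroke libraries 1 and 6 were the 2 highest of their group, and in 23 HT + Sham library 6 was the lowest of its group. These libraries had been set apart by their marker scores, and the same counts over all genes are not given here. By role, the median log2 fold change in HT mice was −0.13 for synaptotagmins, −0.090 for synaptic SNAREs, 0.0098 for SNAREs of other membranes, −0.025 for regulators, −0.10 for scaffolds and −0.075 for vesicle proteins. Without the 3 libraries the medians were −0.18, −0.20, −0.028, −0.052, −0.23 and −0.16 in the same order.

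*Syt17* (chr7:118380717-118448222) stood at 56.0 to 77.5 (median 60.8) CPM in HT + Sham and 39.8 to 51.8 (median 45.5) CPM in HT + Stroke, and the groups did not overlap. Its log2 fold change was −0.47 ± 0.10 (SE), adjusted P = 0.0445, and −0.53 ± 0.12 (SE), adjusted P = 0.0135 without the 3 libraries. *Syt2* (chr1:134646677-134762593) rose, with 24.2 to 39.0 (median 32.4) CPM in HT + Sham and 38.9 to 64.6 (median 52.0) CPM in HT + Stroke, with an overlap at the edge of the ranges. Its log2 fold change was 0.72 ± 0.12 (SE), adjusted P = 0.0180, and 0.55 ± 0.12 (SE), adjusted P = 0.0113 without the 3 libraries. The 4 parvalbumin interneuron markers had a median log2 fold change of 0.41 with 0 called. By edgeR 3 of them had an unadjusted P under 0.05, against 17% of all genes. Of the oligodendrocyte markers 4 of 5 rose with a median of 0.53, against 0.544% of all genes. The part of these cells in the results of *Syt2* and *Syt17* was not tested. With the striatal and olfactory bulb scores as covariates the log2 fold change of *Syt2* was 0.34 ± 0.11 (SE) and that of *Syt17* −0.49 ± 0.16 (SE), and neither passed (adjusted P = 0.277 for both). The call of *Syt17* ended without any 1 of HT + Sham libraries 1, 2, 3 or 4 or of HT + Stroke libraries 2, 3 or 4 (adjusted P up to 0.134). The call of *Syt2* ended without any 1 of HT + Sham libraries 1, 3 or 4 or of HT + Stroke library 2 (adjusted P up to 0.0762).

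Several genes that fell in NT mice overlapped between the HT groups. *Sv2b* at 261 to 359 (median 346) CPM in HT + Sham and 212 to 329.7 (median 248) CPM in HT + Stroke differed by a log2 fold change of −0.32 ± 0.11 (SE), adjusted P = 0.132, and −0.53 ± 0.093 (SE), adjusted P = 0.00247 without the 3 libraries. *Pclo* at 106 to 150.1 (median 129) CPM in HT + Sham and 81.7 to 135 (median 104) CPM in HT + Stroke differed by a log2 fold change of −0.22 ± 0.11 (SE), adjusted P = 0.338, and −0.43 ± 0.10 (SE), adjusted P = 0.0147 without the 3 libraries. *Syt16* at 45.7 to 73.3 (median 60.0) CPM in HT + Sham and 41.0 to 62.7 (median 51.8) CPM in HT + Stroke differed by a log2 fold change of −0.18 ± 0.11 (SE), adjusted P = 0.409, and −0.35 ± 0.10 (SE), adjusted P = 0.0468 without the 3 libraries. These passed without the 3 libraries, whose choice by marker scores bears on that fit, and not with them. *Rims1* at 80.4 to 123 (median 106) CPM in HT + Sham and 74.9 to 115 (median 91.0) CPM in HT + Stroke differed by a log2 fold change of −0.12 ± 0.10 (SE), adjusted P = 0.582, and −0.30 ± 0.097 (SE), adjusted P = 0.0783 without the 3 libraries. *Snap25* at 1932 to 2571 (median 2187) CPM in HT + Sham and 1675 to 2186 (median 1915) CPM in HT + Stroke differed by a log2 fold change of −0.18 ± 0.091 (SE), adjusted P = 0.338, and −0.29 ± 0.11 (SE), adjusted P = 0.118 without the 3 libraries. *Syt1* at 957 to 1233 (median 1095) CPM in HT + Sham and 823 to 1057 (median 913) CPM in HT + Stroke differed by a log2 fold change of −0.22 ± 0.084 (SE), adjusted P = 0.193, and −0.33 ± 0.099 (SE), adjusted P = 0.0559 without the 3 libraries. For these the call did not pass in either fit. *Vamp8* at 7.45 to 15.6 (median 10.02) CPM in HT + Sham and 9.34 to 25.9 (median 17.9) CPM in HT + Stroke differed by a log2 fold change of 0.72 ± 0.25 (SE), adjusted P = 0.171, and 1.14 ± 0.15 (SE), adjusted P = 3.69e-04 without the 3 libraries. It rose in the fit without the 3 libraries, which had been set apart by their phagocyte and astrocyte scores. The call of *Sv2b* was gained without HT + Stroke library 1 (adjusted P = 0.0457). The call of *Stxbp5* was gained without HT + Stroke library 1 (adjusted P = 0.0400). The call of *Stxbp6* was gained without HT + Stroke library 5 (adjusted P = 0.0206). The call of *Sv2c* was gained without HT + Sham library 5 or without HT + Stroke library 5 (adjusted P up to 0.0312).

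Averaged over NT and HT mice in a fit of all 4 groups, 29 of 68 genes fell, against 11.6% of all 17608 genes tested, and 9 rose, against 14.2%. The rises were *Vamp8*, *Vamp5*, *Vamp3* and *Stx11* among SNAREs of other membranes, the regulators *Stxbp2* and *Stxbp3*, *Syt2*, *Syt6* and *Sv2c*. With 1 library left out at a time, the log2 fold change of *Syt6* was 0.59 to 0.72 in NT and −0.23 to −0.029 in HT mice. That of *Syt2* was −0.096 to 0.13 in NT and 0.64 to 0.79 in HT mice, so these averages join unlike values. Among the genes that passed, the lowest log2 fold changes (± SE) were *Syt17* −0.47 ± 0.073, *Sv2b* −0.47 ± 0.066, *Syt16* −0.38 ± 0.065, *Rab3c* −0.34 ± 0.065 and *Pclo* −0.34 ± 0.065. *Vamp2*, *Syt7*, *Vamp7* and *Stx7*, which did not pass in NT mice alone, fell here, with log2 fold changes between −0.23 and −0.16. *Stx11*, a SNARE of immune cells, was 0.158 to 0.535 (median 0.293) CPM in NT + Sham and 0.507 to 1.49 (median 0.923) CPM in NT + Stroke, from 3 to 30 counts a library. In HT mice *Stx11* was 0.177 to 0.579 CPM in sham and 0 to 0.956 CPM in stroke, with overlap. Without the 3 libraries 32 genes fell, against 14.1% of all genes, and 8 rose, against 16.5%. *Syt2* was no longer among them, at 0.28 ± 0.11 (SE), adjusted P = 0.0543. With the striatal and olfactory bulb scores as covariates 7 genes fell (*Bsn*, *Snap25*, *Sv2b*, *Syn2*, *Syt16*, *Syt17*, *Syt4*) and 1 rose (*Vamp8*), with 6.4% of all genes called. The call of *Syt6* ended without any 1 of NT + Sham libraries 1, 2, 3 or 5 or of NT + Stroke libraries 1, 4 or 5 or of HT + Sham libraries 1, 2, 4 or 5 or of HT + Stroke libraries 2, 5 or 6 (adjusted P up to 0.0887). The call of *Vamp2* ended without HT + Sham library 4 (adjusted P = 0.0515). The call of *Stx11* ended without any 1 of HT + Stroke libraries 2 or 3 (adjusted P up to 0.0580). The call of *Stxbp2* ended without NT + Sham library 4 or without HT + Stroke library 2 (adjusted P up to 0.0508). The call of *Stxbp3* ended without NT + Stroke library 1 or without HT + Stroke library 3 (adjusted P up to 0.0518). The call of *Rims2* ended without HT + Sham library 3 or without HT + Stroke library 4 (adjusted P up to 0.0586). The call of *Unc13a* ended without NT + Sham library 4 (adjusted P = 0.0551). The call of *Syt11* ended without any 1 of NT + Sham libraries 1, 2, 3, 4 or 5 or of NT + Stroke libraries 1, 2, 4, 5 or 6 or of HT + Sham libraries 2, 3, 4 or 5 or of HT + Stroke libraries 2, 3, 4 or 5 (adjusted P up to 0.0871). The call of *Syp* ended without any 1 of NT + Sham libraries 1, 2, 3 or 6 or of NT + Stroke libraries 1, 3 or 5 or of HT + Sham libraries 1, 2 or 4 or of HT + Stroke libraries 2, 3, 5 or 6 (adjusted P up to 0.0730). The call of *Syn3* ended without any 1 of NT + Sham library 4 or of NT + Stroke libraries 3 or 4 or of HT + Sham libraries 1 or 3 or of HT + Stroke libraries 5 or 6 (adjusted P up to 0.0633).

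Angiotensin II alone was examined in sham and in stroke mice. In HT + Sham vs NT + Sham, 0 of 67 genes passed in edgeR (0% of all genes), 0 in DESeq2 and 0 in limma, and 10 had an unadjusted P under 0.05, a share to be read against 8.03% of all genes. The smallest P belonged to *Syt6*, with a log2 fold change of 0.45 ± 0.12 (SE, unadjusted P = 0.00183, adjusted P = 0.406), to *Syt2*, with −0.38 ± 0.11 (SE, unadjusted P = 0.00195, adjusted P = 0.406), and to *Vamp1*, with −0.22 ± 0.066 (SE, unadjusted P = 0.00413, adjusted P = 0.426). *Vamp1* was 137 to 164 (median 146) CPM in NT + Sham and 111 to 136 (median 127) CPM in HT + Sham, and all HT libraries were lower. In HT + Stroke vs NT + Stroke, 0 of 68 passed by edgeR (0% of all genes), DESeq2 or limma, and 11 had an unadjusted P under 0.05, against 7.23% of all genes. *Cplx3*, with a log2 fold change of 0.36 ± 0.10 (SE, unadjusted P = 0.00271, adjusted P = 0.654), *Cplx2*, with 0.28 ± 0.083 (SE, unadjusted P = 0.00422, adjusted P = 0.654), and *Syt6*, with −0.38 ± 0.12 (SE, unadjusted P = 0.00539, adjusted P = 0.654), came closest. Averaged over both surgeries 0 of 68 passed by the same tools (0% of all genes) and 1 had an unadjusted P under 0.05, against 4.41%. This was *Vamp7*, with a log2 fold change of −0.13 ± 0.063 (SE, unadjusted P = 0.0447, adjusted P = 0.900), and *Stx7* and *Unc13b* followed at −0.082 ± 0.044 and −0.11 ± 0.064 (SE). The median log2 fold change over the machinery was −0.056 in sham mice, 0.021 in stroke mice and 0.0054 averaged. Without the 3 libraries the medians were −0.034, 0.0070 and 0.0026 in the same order, and none passed in edgeR, with smallest adjusted P of 0.822, 0.854 and 0.839. In these fits 6, 4 and 3 genes had an unadjusted P under 0.05, and the shares of all genes are not given here, so an excess cannot be read from these counts.

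The interaction asked whether the stroke difference itself differed between HT and NT mice. By edgeR 0 of 68 genes passed (0% of all genes, with a smallest adjusted P of 0.262), by limma 0 and by DESeq2 2 (0.0647% of all genes), *Syt6* and *Vamp1*. At an unadjusted P under 0.05 there were 14 in edgeR, against 10.4% of all genes. Without the 3 libraries there were 5, and the share of all genes for that fit is not given here. *Syt6* had a difference of log2 fold changes, HT minus NT, of −0.82 ± 0.18 (SE), with an unadjusted P of 1.14e-04. It stood at 34.8 to 61.0 (median 39.9) CPM in HT + Sham and 34.5 to 48.2 (median 38.0) CPM in HT + Stroke, where the groups overlapped, as the bulb scores given above also did. *Vamp1* had 0.40 ± 0.089 (SE), with an unadjusted P of 1.22e-04, and stood at 111 to 136 (median 127) CPM in HT + Sham and 128 to 155 (median 144) CPM in HT + Stroke. *Syt2* had 0.70 ± 0.21 (SE), with an unadjusted P of 0.00255. Without the 3 libraries the same differences were −0.68, 0.33 and 0.54, with adjusted P of 0.993 for each of them. With the striatal and olfactory bulb scores as covariates they were −0.45 ± 0.19, 0.25 ± 0.097 and 0.34 ± 0.13 (SE), and 0 genes passed by edgeR.

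Related genes of one function need not fall together, so the balance within 10 pairs was tested as the log2 ratio of their CPM (exact two-sided permutation test over 6 against 6 libraries, smallest possible P = 0.00216, adjusted over 20 tests). Such a ratio shows unequal change and does not say which gene changed. Of the ratios described here 2 differed in NT mice. The log2 ratio of *Sv2a* to *Sv2b* was 0.40 ± 0.11 (SD) in NT + Sham and 0.95 ± 0.15 (SD) in NT + Stroke, a stroke minus sham difference of 0.56 (exact P = 0.00216, adjusted P = 0.0144), so the balance moved toward *Sv2a*. The log2 ratio of *Rims1* to *Rims2* was 0.78 ± 0.10 (SD) in NT + Sham and 0.52 ± 0.10 (SD) in NT + Stroke, a stroke minus sham difference of −0.26 (exact P = 0.00433, adjusted P = 0.0216), toward *Rims2*. In HT mice 2 differed. The log2 ratio of *Syt1* to *Syt2* was 5.08 ± 0.16 (SD) in HT + Sham and 4.15 ± 0.27 (SD) in HT + Stroke, a stroke minus sham difference of −0.93 (exact P = 0.00216, adjusted P = 0.0144), toward *Syt2*, and without the 3 libraries the difference was −0.86 (adjusted P = 0.0397, exact permutation). The log2 ratio of *Vamp2* to *Vamp1* was 4.12 ± 0.17 (SD) in HT + Sham and 3.74 ± 0.20 (SD) in HT + Stroke, a stroke minus sham difference of −0.37 (exact P = 0.00649, adjusted P = 0.0260), toward *Vamp1*. Its adjusted P was 0.139 by the exact permutation test without the 3 libraries, where the difference was −0.36. Leaving out any 1 of HT + Sham libraries 1, 2, 3, 4 or 6 or of HT + Stroke libraries 1, 2, 3 or 6 also ended this call (adjusted P up to 0.0693 by exact permutation). *Syn1* to *Syn2*, *Rab3a* to *Rab3c*, *Unc13a* to *Unc13b*, *Cplx2* to *Cplx1* and *Syt1* to *Syt7* did not pass in either comparison, with differences between −0.22 and 0.24. In HT mice the log2 ratio of *Sv2a* to *Sv2b* differed by 0.25 and that of *Rims1* to *Rims2* by −0.040. In NT mice *Syt1* to *Syt2* differed by −0.29 and *Vamp2* to *Vamp1* by 0.011. None of these passed (adjusted P from 0.157 to 0.926 by exact permutation). Whether a ratio moved differently in HT and NT mice was not tested.

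**Figure D5:**
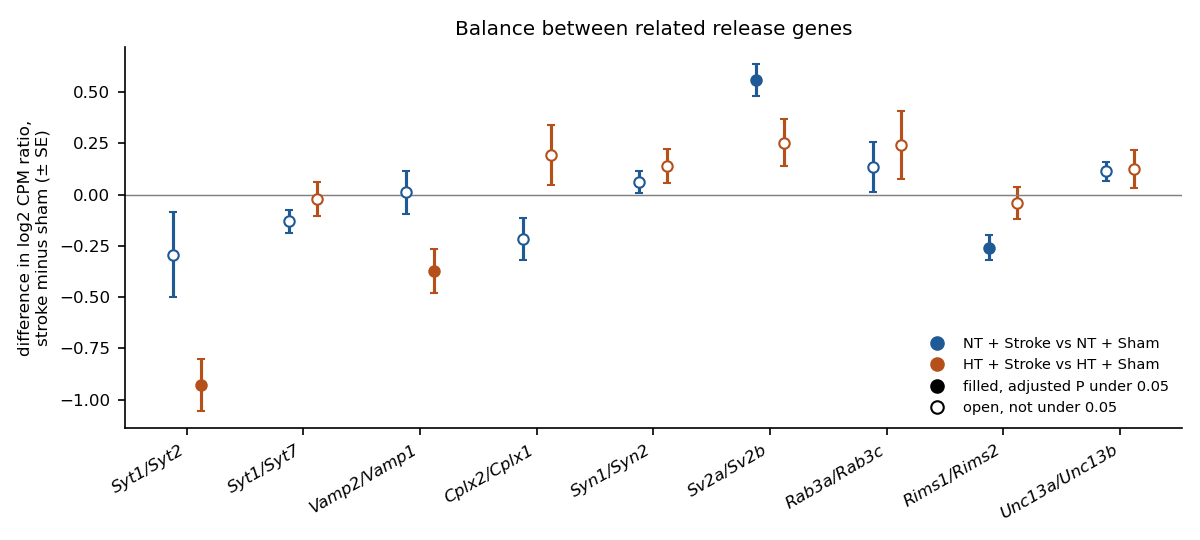
Difference between stroke and sham in the mean log2 CPM ratio of the pairs of related release genes described here (vertical axis, ± SE from the spread of 6 libraries per group), in NT mice (blue) and HT mice (orange). The filled points are the 2 NT and 2 HT pairs with an adjusted P under 0.05, and *Syt1/Syt2* in HT mice is the lowest at −0.93.

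Other genes that vesicles need were counted from lists chosen by function, with 11.5% of all genes lower and 14.4% higher in NT mice as the background. In NT mice, of the other release genes (NSF and its adaptors, liprins and others) 16 of 24 fell and 1 rose (median log2 fold change −0.26). *Napg* and *Napb*, SNAP adaptors that recycle SNARE complexes, and *Doc2a*, a calcium sensor of spontaneous and asynchronous release, had the smallest P for stroke averaged over both pressures, with log2 fold changes (± SE) in NT mice of *Napg* −0.37 ± 0.060, *Napb* −0.35 ± 0.073 and *Doc2a* −0.59 ± 0.094. Of the genes of vesicle endocytosis 7 of 9 fell and 0 rose (median log2 fold change −0.28), with the endophilin *Sh3gl2* −0.37 ± 0.066, amphiphysin *Amph* −0.30 ± 0.069 and synaptojanin *Synj1* −0.36 ± 0.061. Of the 6 vesicle transmitter transporters 1 fell and 1 rose. *Slc17a7* (VGLUT1), the glutamate transporter of cortical neurons, fell, with 2386 to 3154 CPM in NT + Sham and 1673 to 2402 CPM in NT + Stroke, a log2 fold change of −0.49 ± 0.083 (SE), adjusted P = 2.32e-04. *Slc32a1*, the GABA and glycine transporter, rose, with 116 to 167 CPM in sham and 166 to 206 CPM in stroke (log2 fold change 0.45 ± 0.090 (SE), adjusted P = 0.00119), and *Slc18a3*, the acetylcholine transporter, had a log2 fold change of 1.04 ± 0.56 (SE) that did not pass. The 7 striatal markers had a median log2 fold change of 0.73 in this comparison, with overlapping scores and none that passed, and their part in both of the latter was not tested. On the other side of the synapse, of the postsynaptic genes 6 of 12 fell and 0 rose (median log2 fold change −0.21), with *Shank2* −0.32 ± 0.081, *Camk2a* −0.34 ± 0.062 and *Gria2* −0.24 ± 0.074, and of the pan-neuronal genes 4 of 10 fell and 0 rose (median log2 fold change −0.23). The medians of the release machinery, the postsynaptic genes and the pan-neuronal genes were −0.16, −0.21 and −0.23, and a difference between the lists was not tested. In HT mice 1 other release gene (*Ppfia2*, a liprin) and none of the endocytosis, transporter, postsynaptic or pan-neuronal genes passed in edgeR, with 10, 4, 4, 2 and 3 at an unadjusted P under 0.05 in the order named, to be read against the 17% of all genes. Without the 3 libraries 4 other release, 4 endocytosis and 2 pan-neuronal genes fell, against 1.66% of all genes, and no transporter or postsynaptic gene passed in edgeR. Of these 2 lists, 2 and 3 genes had an unadjusted P under 0.05, and the share of all genes at that threshold is not given here.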

How the data were processed

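RNA of 24 libraries (6 per group) was sequenced after poly(A) selection on an Illumina HiSeq instrument. Counts and FPKM per gene were deposited by the authors in 4 tables, each of 2 groups. The submitters' processing notes name featureCounts 1.5.0-p3 and DESeq2 1.20.0, whereas the study's methods name an earlier DESeq package and an Ensembl mouse genome. The aligner and build are not given in the sources used here, and 69 of the 72 genes lie where GENCODE M21 on GRCm38 puts them. The tables were joined on gene identifier (33981 genes), and 0 of 48 comparisons of the same library column in different tables found a differing value. The authors' 48 columns of normalized counts, 8 group means, fold changes and P-values were not used.

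Counts were tested with edgeR 4.0.16 (R 4.3.3): filterByExpr with a minimum count of 10 and total of 15, TMM scaling, quasi-likelihood test, with P adjusted by Benjamini-Hochberg across every gene fitted and 0.05 as threshold. Comparisons of 2 groups were fitted on those groups, averages and the interaction on all 4. The procedure was checked on simulated counts. DESeq2 1.42.0 and limma 3.58.1 (on log2(FPKM + 1) and log2(FPKM + 0.1)), other scalings, filters, covariates and leaving out libraries were alternatives. Paralog ratios used CPM + 0.5 and an exact permutation test. The SE of an edgeR log2 fold change is its size divided by the square root of its F statistic, and library totals limit the precision of genes with few counts.

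Members, lists, pairs and tests were chosen with earlier results of these data known. In each role the text names at least the most abundant gene, the 4 with the smallest P for stroke averaged over both pressures, and the 3 with the smallest P in each comparison of angiotensin II. Other genes were named after their values were seen, for their role or because a call changed. Promoters came from RefSeq tables. Some genes counted among the 72, and the ratio of 1 pair, are not reported here.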

Additional observations from a re-analysis of the deposited data

Results flagged for a closer look

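Each of the 37 named genes was examined in each group of 6 libraries for a library far from the others, and 5 of 148 sets of values had a gap above Dixon's critical value, where chance alone gives about 1 in 20. *Bsn* stood at 438 CPM in NT + Sham library 4, against 380.2 to 401 CPM in the other 5 libraries of the group. *Rab3a* stood at 679.7 CPM in HT + Stroke library 3, against 935 to 1046 CPM in the other 5 libraries of the group. *Rims1* stood at 99.6 CPM in NT + Stroke library 3, against 80.3 to 84.9 CPM in the other 5 libraries of the group. *Syn1* stood at 810.5 CPM in NT + Sham library 4, against 857 to 875 CPM in the other 5 libraries of the group. *Syt6* stood at 48.2 CPM in HT + Stroke library 5, against 34.5 to 38.9 CPM in the other 5 libraries of the group. None of the named genes had an interaction of angiotensin II and stroke that passed an adjusted P of 0.05 by edgeR, and DESeq2 called 2 of them. The cause of these values was not tested.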

How the results depend on the processing

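No paired analysis was possible because the labels give no replicate numbers that tie libraries of different groups. With the striatal and olfactory bulb scores as covariates, 3 genes were lower and 1 higher in NT mice after stroke (4.14% of all genes called). In HT mice 0 were lower and 0 higher (0% of all genes), and averaged over both pressures 7 were lower and 1 higher (6.4%). In HT mice after stroke the counts of lower and higher genes were 5 and 3 by DESeq2 (2.79% of all genes called). With all 4 groups in one fit the counts were 7 and 3 (6.39%). Without HT + Sham library 6 and HT + Stroke libraries 1 and 6 the counts were 8 and 3 (8.47%), and 1 paralog ratio was left. They were 0 lower by limma with either pseudocount, and 12 lower and 8 higher at an unadjusted P under 0.05 (17% of all genes). At that threshold 9 genes were lower and 1 higher in HT + Sham vs NT + Sham (8.03% of all genes). In HT + Stroke vs NT + Stroke, 2 were lower and 9 higher (7.23% of all genes). For angiotensin II averaged over both surgeries 1 was lower (4.41% of all genes). In the interaction 2 were lower and 12 higher (10.4% of all genes). There DESeq2 called 1 lower and 1 higher at an adjusted P under 0.05 (0.0647% of all genes called). The causes of these shifts were not tested, except that the looser threshold admits more genes by construction. Leaving out 1 library at a time gave 26 to 30 lower and 4 to 6 higher genes in NT mice, 0 to 3 lower and 0 to 2 higher in HT mice, 26 to 30 lower and 6 to 9 higher averaged, and 1 to 2 paralog ratios in HT mice. No named value that passed the test changed sign under any alternative run. The filter on low counts removed *Stx11*, *Stx19*, *Vamp9*, *Cplx4* and *Syt8* for stroke in NT or in HT mice alone. Whether depth or near-absent expression in this tissue kept their counts low was not tested.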
